A study of Mus musculus with 15 samples.

Results

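The 41 genes described here are interferon-stimulated genes, genes whose transcription rises when a cell receives a type I interferon. They are given by a list of gene symbols, with no threshold on their values, and all 41 were found among the 41819 genes of the pterosin B table and passed the filter on low counts there. The smaller knockout table lists 2275 genes that its authors selected on these same libraries, and 17 of the 41 are among them. The other 24 are not analysed in the knockout experiment.

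Bulk RNA sequencing was applied to mouse cells in culture, labelled as bone marrow monocytes, in 5 groups of 3 libraries. A design note in the deposit names embryonic livers instead, and the labels are followed here. The aim was to see how loss of the kinase SIK3 and the compound pterosin B act on osteoclast formation. All cells came from mice labelled C57BL/6J, and all cultures had M-CSF, a growth factor of macrophages, at 50 ng/ml for 2 days at the outset. SC cultures then had vehicle without RANKL, for a time that the labels do not state. SCR cultures had RANKL, the cytokine that turns these monocytes into osteoclasts, at 50 ng/ml with M-CSF at 50 ng/ml for 3 days, and SCRP cultures had the same with pterosin B, a compound used to inhibit SIK3 signalling, at 300 µM. Changes from SC to SCR are written below as changes under RANKL. Any difference in culture time cannot be told apart from RANKL there, nor from RANKL with pterosin B in SCRP against SC. WT and KO cultures both had M-CSF and RANKL for 2 days. KO carries floxed Sik3 alleles (Sik3_flox/flox) cut by a Cre driven from the Rank locus (Rank_Cre/+), so deletion needs a cell that already expresses RANK. WT is labelled a wild type control, and whether it carries Rank_Cre/+ is not given in the sources used here. The labels do not say whether the 3 libraries of a group came from separate mice, and the tests therefore see no other spread than that between these libraries, which may be technical.

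Type I interferons bind a receptor made of IFNAR1 and IFNAR2, whose Janus kinases JAK1 and TYK2 phosphorylate signal transducers that include STAT2. With IRF9 these form a complex that binds a purine-rich promoter element, the interferon-stimulated response element or ISRE, and switches on antiviral genes. In the osteoclast lineage, interferon-beta made in response to RANKL is known as a brake on differentiation, and the monocyte factor IRF8 is known as another.

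Promoter letters are shown for the 6 genes with the largest change under pterosin B among those whose window holds an ISRE-like run. Windows cover 250 bases before to 50 after an annotated start (RefSeq, build GRCm38.p6), and the search was for GAAA, any 2 bases and GAAA again on either strand, which on the opposite strand reads TTTC, any 2 bases and TTTC. The capitals mark every match in the 60 bases shown, each sequence reads 5′ to 3′ on the strand of its gene, and where matches overlap the capitals run together.
Gbp3 (chr3:142559980-142560039, + strand): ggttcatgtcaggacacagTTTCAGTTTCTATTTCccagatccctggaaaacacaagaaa
Isg15 (chr4:156200850-156200909, - strand): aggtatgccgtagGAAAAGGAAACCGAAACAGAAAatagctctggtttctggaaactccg
Gbp7 (chr3:142530258-142530317, + strand): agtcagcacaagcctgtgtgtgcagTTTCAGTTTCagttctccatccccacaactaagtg
Oas3 (chr5:120777700-120777759, - strand): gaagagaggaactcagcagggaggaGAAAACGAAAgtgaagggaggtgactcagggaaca
Ifit1 (chr19:34640779-34640838, + strand): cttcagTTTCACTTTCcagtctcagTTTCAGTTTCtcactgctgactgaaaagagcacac
Gbp2 (chr3:142620579-142620638, + strand): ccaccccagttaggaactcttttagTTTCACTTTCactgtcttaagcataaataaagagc
Of the 41 genes, 29 had a window, 35 windows in all, and Usp18, Dhx58, Zbp1, Oas2, Mx1, Mx2, Rtp4, Ifi27l2a, Parp9, Parp14, Ly6a and Ly6e had none. The run was present in 16 of the 35 windows (45.7%), against 3.44% of all 32851 windows of the same length. Counted by gene, 15 of 29 (51.7%) had it, against 3.99% of 27025 genes. The interferon-gamma type run TTCNNNGAA, which is the same on both strands, was in 22.9% of the windows against 8.30% of all windows, and the 2 kinds of run overlapped in 1 window. Of the 29 genes, 16 were lower under pterosin B than under RANKL alone, 9 with the ISRE-like run and 7 without, and 12 did not pass that test, 5 with the run and 7 without. A match of these letters describes the sequence and does not show that a factor binds there.

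Many of the genes lie beside a relative. Within gaps of at most 100 kb, 18 of the 41 fall into 8 groups on build GRCm38. Gbp7, Gbp3 and Gbp2 lie at chr3:142530342-142638008, Ifit2, Ifit3 and Ifit1 at chr19:34550694-34650009, Oas2 and Oas3 at chr5:120730333-120777661, and Oasl2 and Oasl1 at chr5:114896936-114937915. The other 4 groups pair Rsad2 with Cmpk2 at chr12:26442746-26479837, Ly6e with Ly6a at chr15:74955051-74998031, Parp14 with Parp9 at chr16:35832874-35972605, and Mx1 with Mx2 at chr16:97447035-97560900. Neighbours did not always share a direction: Ly6e rose where Ly6a fell.

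Exon reads per library ranged from 37138648 to 49927591 in the pterosin B experiment, and library totals recovered for the knockout experiment from 21267111 to 25932103. Levels are given as CPM, a gene's reads scaled to the total of its library, and changes as log2 fold changes with standard errors. Every adjusted p is from edgeR's quasi-likelihood test with Benjamini-Hochberg adjustment over all genes tested, and a gene is said to have risen or fallen only at an adjusted p under 0.05. In the labelled knockout, Sik3 read 58.3, 59.4 and 56 CPM in WT and 23.9, 17.6 and 19.4 in KO, lower in each KO library, counted over all its exons and not only over the deleted part. Of 10 osteoclast markers, 10 rose from SC to SCR, 10 fell from SCR to SCRP and 10 were lower in KO than in WT. Over all genes tested 30.7% rose from SC to SCR and 19.9% fell from SCR to SCRP. Of the genes tested in the knockout table, which were selected for change, 51.3% were lower in KO. The summed level of these markers was between 72.3 and 74.7 CPM in SC, 5400.0 and 5644 in SCR and 1026 and 1352 in SCRP, and between 13974 and 14431 in WT and 3356 and 3563 in KO. The summed level of 11 monocyte and macrophage markers was between 21143 and 23927 CPM in SC, 7241 and 8435 in SCR and 10642 and 12269 in SCRP. That sum was mostly Lyz2, with 4191753 of the 5488852 reads of these markers over 9 libraries. Counted by gene, 11 of the 11 fell from SC to SCR. From SCR to SCRP 6 rose, 1 fell and 4 did not pass. Over all genes tested 28.4% fell from SC to SCR, and 17.9% rose and 19.9% fell from SCR to SCRP. The 9 lymphoid markers summed to at most 0.416 CPM in any library of the pterosin B experiment, with Cd3e and Ncr1 at 0 reads. Among 8 plasmacytoid dendritic cell markers Klk1 had 0 reads, Ly6d 1 and Siglech 24 over 9 libraries, and their sum, between 45.9 and 86.8 CPM, was mostly that of Tcf4. The 9 neutrophil markers summed to between 105 and 120.1 CPM in SC, 56.8 and 66.4 in SCR and 14.5 and 17.4 in SCRP. The part of these marker shifts in the results below was not tested, and in bulk samples fewer cells of a type and less RNA per cell cannot be told apart.

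Under RANKL the interferon-stimulated genes mostly fell. From SC to SCR, 25 of the 41 fell and 5 rose, where 28.4% of the 13650 genes tested fell and 30.7% rose. The median log2 fold change of the 41 was -0.73, against 0.02 over all genes tested. At least 2-fold, 11 fell and 2 rose, against 8.84% and 8.26% of all genes. SCR libraries lay wholly below SC in 26 of the 41 and wholly above in 6, against 31.8% and 33.7% of all genes. The 5 that rose were Oasl1, Gbp7, Gbp3, Ly6e and Samhd1.

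With pterosin B added to RANKL, far more of the set fell than rose. From SCR to SCRP, 22 of the 41 fell and 2 rose, Ly6e and Stat2, where 19.9% of all genes tested fell and 17.9% rose. The median was -0.76 against 0.00 over all genes tested, and 14 of the 41 fell at least 2-fold and 0 rose so far, against 4.67% and 1.33% of all genes. SCRP libraries lay wholly below SCR in 21 genes and wholly above in 1, against 25.4% and 23.9%. Set against SC, which shares its libraries with the first comparison, SCRP had 36 of the 41 lower and 2 higher, Ly6e and Gbp7, where 27.4% of all genes tested fell and 28.6% rose. That median was -1.38 against 0.02, and 26 of the 41 were at least 2-fold lower and 1 higher, against 7.90% and 5.68% of all genes. Without overlap, 35 were lower and 2 higher, against 30.4% and 31.1%. Oasl1, Samhd1 and Ifi44 did not pass in that comparison.

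The 41 genes followed a small number of courses through the 3 groups. Lower at each step were 11 genes, Ddx58, Oas1a, Oas3, Oasl2, Rsad2, Rtp4, Ifi209, Ifi27l2a, Xaf1, Parp9 and Lgals3bp. Another 13 fell under RANKL and did not pass the test between SCR and SCRP, among them Bst2, Irf9 and Trim30a. A further 7 did not pass under RANKL and fell with pterosin B, namely Isg15, Usp18, Trim25, Ifit1, Oas2, Gbp2 and Ly6a. Oasl1, Gbp7, Gbp3 and Samhd1 rose under RANKL and fell with pterosin B, and Ly6e rose at both steps. Stat2 fell and then rose, Ifit3, Cmpk2 and Ifi35 passed only between SCRP and SC, and Ifi44 passed nowhere. A gene that misses the threshold at 1 step is not shown to be level there.

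**Figure D1:**
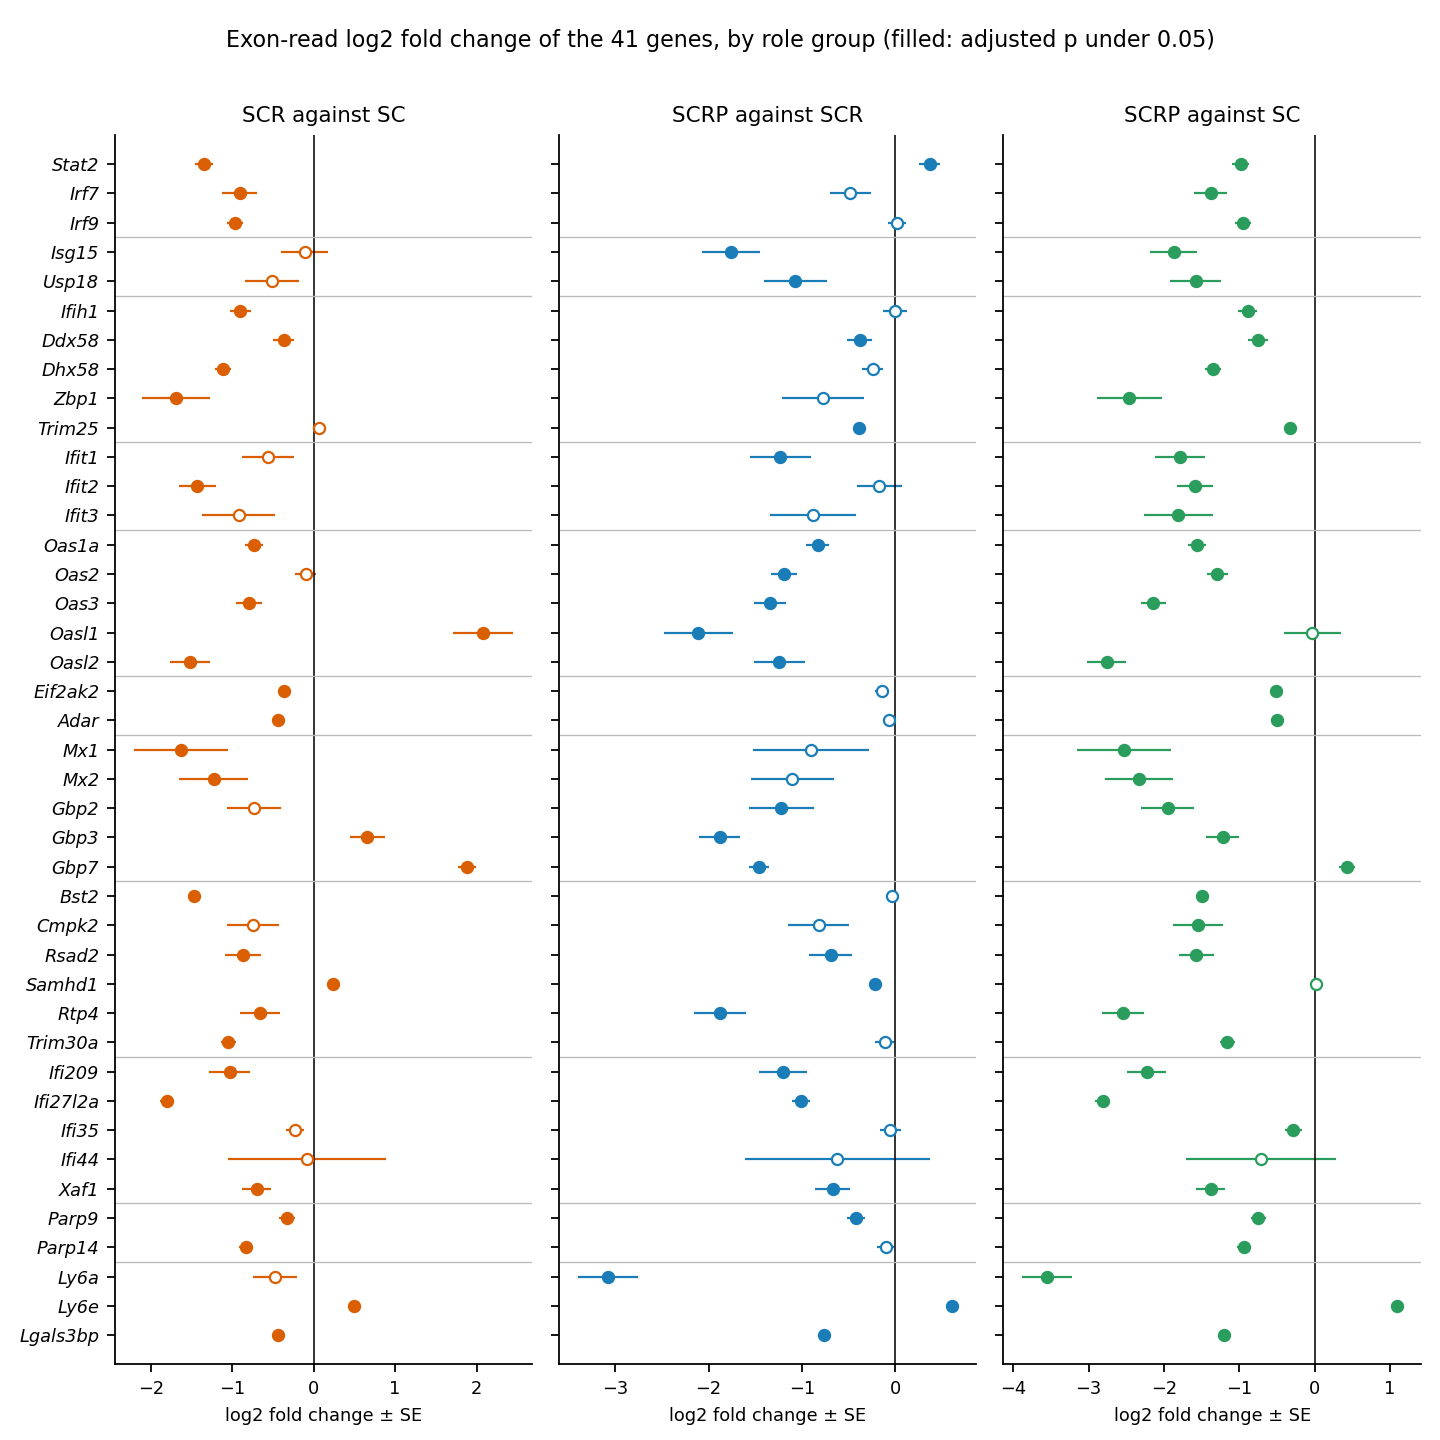
Log2 fold change with its standard error on the x axis for each of the 41 genes, in rows by role group, for SCR against SC, SCRP against SCR and SCRP against SC; filled points have an adjusted p under 0.05. Most points lie left of zero in all 3 panels, with filled points to the right for Oasl1, Gbp7, Gbp3, Ly6e and Samhd1 in the first, Ly6e and Stat2 in the second and Ly6e and Gbp7 in the third.

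The transcription factors of the pathway fell under RANKL, 3 of 3, where 28.4% of all genes tested fell. Stat2 (ENSMUSG00000040033, chr10:128270559-128292849), a signal transducer that the receptor's kinases phosphorylate, read 39.1, 37.4 and 41.3 CPM in SC, 15.4, 14.1 and 16.8 in SCR and 16, 23.5 and 20.4 in SCRP. SC libraries were all above the other groups, and SCR and SCRP overlapped. Its log2 fold change was -1.35 ± 0.11 from SC to SCR (adjusted p = 2.34e-08) and 0.37 ± 0.11 from SCR to SCRP (adjusted p = 0.0169), and the second call was lost when SCR replicate 2 (adjusted p = 0.0703) or SCRP replicate 2 (adjusted p = 0.116) was left out. Irf9, which gives the STAT complex its hold on DNA, read 43.2, 41.4 and 38.6 CPM in SC, 19.8, 18.4 and 24.5 in SCR and 20.7, 20 and 23.2 in SCRP, with SCR and SCRP intermixed. It fell by 1.96-fold under RANKL (adjusted p = 2.32e-07), and its log2 fold change between SCR and SCRP was 0.02 ± 0.10 (adjusted p = 0.875). Irf7, a factor that amplifies interferon production, read 10.3, 12 and 12.2 CPM in SC, 7.01, 3.72 and 7.49 in SCR and 4.44, 3.35 and 5.35 in SCRP. It fell 1.87-fold under RANKL (adjusted p = 0.00165), with 1 of 3 SCR libraries inside the SCRP range, and the step to SCRP did not pass (adjusted p = 0.103). Irf9 overlaps Rnf31 on the same strand and Irf7 overlaps Phrf1 on the opposite strand, and the exon reads of Irf9 and Irf7 were counted as unique to them. Which strand was counted is not given in the sources used here.

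ISG15 is a ubiquitin-like protein that is attached to other proteins, and USP18 is the protease that removes it and that also restrains the interferon receptor. Isg15 (ENSMUSG00000035692, chr4:156199424-156200818) read 4.05, 2.73 and 3.83 CPM in SC, 3.92, 2.06 and 3.79 in SCR and 0.954, 1.21 and 0.74 in SCRP. SC and SCR overlapped and all SCRP libraries were below them. The log2 fold change from SCR to SCRP was -1.76 ± 0.31, a 3.38-fold fall (adjusted p = 2.68e-04), and that from SC to SCR was -0.11 ± 0.29 (adjusted p = 0.757). Usp18 read 2.56, 2.05 and 3.11 CPM in SC, 1.41, 1.64 and 2.35 in SCR and 0.906, 0.572 and 1.09 in SCRP. The order of groups was the same, and its fall of 2.1-fold with pterosin B (adjusted p = 0.0213) was lost without SCR replicate 3 (adjusted p = 0.11) and without SCRP replicate 2 (adjusted p = 0.0858).

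Of the 5 genes for sensors of foreign nucleic acid and their ligase, 4 fell under RANKL and 2 fell with pterosin B. Over all genes tested 28.4% and 19.9% fell. Dhx58, which encodes the RNA helicase LGP2, read 18.6, 18 and 20.2 CPM in SC, 8.12, 8.29 and 9.86 in SCR and 7.04, 7.79 and 7.4 in SCRP. Zbp1, a sensor of Z-form nucleic acid, read 2.32, 1.94 and 2.02 CPM in SC, 0.687, 0.37 and 0.869 in SCR and 0.429, 0.44 and 0.272 in SCRP. Ifih1, the gene of the long double-stranded RNA sensor MDA5, read 30.6, 25.7 and 32.1 CPM in SC, 13.7, 14.4 and 19.4 in SCR and 14.3, 15.2 and 18.1 in SCRP. For each of the 3 genes every SC library lay above all others, with falls of 2.16-fold (adjusted p = 9.05e-08), 3.23-fold (adjusted p = 0.00215) and 1.86-fold (adjusted p = 1.42e-05) under RANKL. Between SCR and SCRP none of the 3 passed, with log2 fold changes of -0.24 ± 0.11, -0.77 ± 0.44 and 0.00 ± 0.13. Ddx58, the gene of the RNA sensor RIG-I, read 30.3, 33 and 35.9 CPM in SC, 25.9, 20.3 and 30.3 in SCR and 18.2, 17.8 and 23 in SCRP, and fell at both steps by 1.29-fold and 1.3-fold (adjusted p = 0.0191 and 0.0284). Trim25, a ubiquitin ligase known in human cells to act on RIG-I, read 209, 208 and 213 CPM in SC, 221, 216 and 224 in SCR and 176, 164 and 166 in SCRP. Its SCRP libraries lay below both other groups, a fall of 1.31-fold (adjusted p = 2.38e-06), while SC to SCR did not pass (adjusted p = 0.178).

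IFIT proteins bind viral RNA and block its translation. Ifit2 read 12.6, 9.7 and 12.3 CPM in SC, 3.92, 2.77 and 6.1 in SCR and 4.67, 2.95 and 3.87 in SCRP. It fell 2.69-fold under RANKL (adjusted p = 5.49e-05), and SCR and SCRP overlapped (adjusted p = 0.631). Ifit1 read 4.03, 4.06 and 4.24 CPM in SC, 3.05, 1.85 and 3.44 in SCR and 0.954, 0.704 and 1.87 in SCRP. It fell 2.35-fold with pterosin B (adjusted p = 0.00764), although its highest SCRP library was a little above its lowest SCR library. Ifit3 read 4.58, 2.86 and 3.16 CPM in SC, 1.25, 0.924 and 3.38 in SCR and 0.668, 0.66 and 1.67 in SCRP, with 1 SCR library far above the other 2, and passed only between SCRP and SC (log2 fold change -1.81 ± 0.46, adjusted p = 0.00332).

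Of the OAS family 5 of 5 genes fell with pterosin B, and under RANKL 3 fell and 1 rose. Over all genes tested 19.9% fell with pterosin B, and 28.4% fell and 30.7% rose under RANKL. OAS enzymes make a short oligoadenylate that activates RNase L, which cuts RNA, an activity that mouse OASL1 lacks. Oas3 read 40.4, 37.8 and 42.6 CPM in SC, 19.9, 20.5 and 28.9 in SCR and 9.09, 6.43 and 11.8 in SCRP. The 3 groups did not overlap, and the log2 fold changes were -0.80 ± 0.16 under RANKL (adjusted p = 3.93e-04) and -1.34 ± 0.17 with pterosin B (adjusted p = 1.12e-05). Oas2 read 20.3, 19.2 and 20.5 CPM in SC, 18.5, 15.3 and 22 in SCR and 8.59, 6.45 and 9.54 in SCRP. SC and SCR overlapped, and SCRP was 2.28-fold lower than SCR (adjusted p = 4.85e-06). Oas1a read 42.5, 40.9 and 43.2 CPM in SC, 23.7, 23.1 and 29.5 in SCR and 11.4, 14.7 and 16.7 in SCRP, with falls of 1.66-fold and 1.78-fold (adjusted p = 3.59e-05 and 3.63e-05). Its relatives are close copies, and 92.7% of its exon reads were counted as unique to it.

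The OASL pair, which lies side by side on chromosome 5, moved in opposite directions under RANKL. Oasl1 (ENSMUSG00000041827), which in mouse is known to hold back translation of Irf7 mRNA, read 0.438, 0.629 and 0.888 CPM in SC, 2.99, 2.11 and 3.14 in SCR and 0.715, 0.616 and 0.584 in SCRP. All SCR libraries stood above all SC and SCRP libraries, which overlapped. It rose 4.22-fold under RANKL (adjusted p = 1.22e-04) and fell 4.3-fold with pterosin B (adjusted p = 2.43e-04), leaving a log2 fold change of -0.03 ± 0.38 between SCRP and SC (adjusted p = 0.958). Oasl2 read 14.4, 15.3 and 19.3 CPM in SC, 5.46, 4.46 and 7.09 in SCR and 2.91, 1.14 and 3.17 in SCRP. It was lower at each step with no overlap between groups, by 2.87-fold (adjusted p = 4.89e-05) and 2.36-fold (adjusted p = 0.00153).

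The genes of a pair of further double-stranded RNA proteins fell under RANKL, by less than most of the set. Eif2ak2 encodes PKR, a kinase that halts translation, and read 69.8, 69.8 and 77 CPM in SC, 54.9, 50.6 and 61.6 in SCR and 50.9, 50.6 and 50.6 in SCRP. Adar encodes ADAR1, which turns adenosine into inosine in double-stranded RNA, and read 78, 70.1 and 76.4 CPM in SC, 57.4, 52.9 and 54.8 in SCR and 50.3, 52.7 and 55.4 in SCRP. Both were highest in the SC libraries, with falls of 1.3-fold (adjusted p = 1.47e-04) and 1.36-fold (adjusted p = 5.95e-06) under RANKL, and neither passed between SCR and SCRP (adjusted p = 0.125 and 0.47). Of the exon reads of Adar, which overlaps Chrnb2, 69.6% were unique.

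The Mx proteins and guanylate-binding proteins are large GTPases that act on viruses and on vacuoles holding pathogens. The 3 Gbp genes lie in 1 block of chromosome 3 and took different courses. Gbp7 (ENSMUSG00000040253) read 5.65, 5.09 and 6.49 CPM in SC, 21.5, 19.6 and 22.4 in SCR and 8.37, 7.48 and 7.38 in SCRP. No groups overlapped, with a rise of 3.69-fold under RANKL (adjusted p = 2.90e-10), a fall of 2.74-fold with pterosin B (adjusted p = 2.50e-08) and a remaining log2 fold change of 0.43 ± 0.11 over SC (adjusted p = 0.00435). Gbp3 (ENSMUSG00000028268) read 3.72, 3.09 and 2.91 CPM in SC, 5.15, 4.91 and 5.31 in SCR and 1.69, 1.3 and 1.19 in SCRP. It rose less, by 1.58-fold (adjusted p = 0.0125), and fell 3.69-fold with pterosin B to below SC (adjusted p = 4.65e-06). Gbp2 read 3.94, 3.15 and 4.52 CPM in SC, 1.98, 1.9 and 3.1 in SCR and 0.715, 0.66 and 1.6 in SCRP. Its SC libraries were the highest, its fall of 2.33-fold with pterosin B (adjusted p = 0.0105) was lost without SCR replicate 3 (adjusted p = 0.0647), and the step under RANKL did not pass (adjusted p = 0.0678).

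Mx1 and Mx2 were at a few CPM at most. Mx1 read 2.89, 2.18 and 3.53 CPM in SC, 1.01, 0.264 and 1.46 in SCR and 0.0715, 0.594 and 0.798 in SCRP. SC libraries were above all others, and the fall under RANKL was 3.1-fold (adjusted p = 0.0244). That call was lost without SC replicate 1 or 3 or SCR replicate 1 or 2, with adjusted p from 0.0503 to 0.0808, and in DESeq2 (adjusted p = 0.0786). Mx2 read 2.08, 1.97 and 1.33 CPM in SC, 0.727, 0.475 and 1.07 in SCR and 0.334, 0.418 and 0.311 in SCRP, with a fall of 2.35-fold (adjusted p = 0.0184) that was lost without SC replicate 1 or 2 or SCR replicate 1 or 2, with adjusted p from 0.0512 to 0.0782. Against SC, SCRP was lower for both, by 5.76-fold (adjusted p = 0.00223) and 5.03-fold (adjusted p = 2.93e-04).

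**Figure D2:**
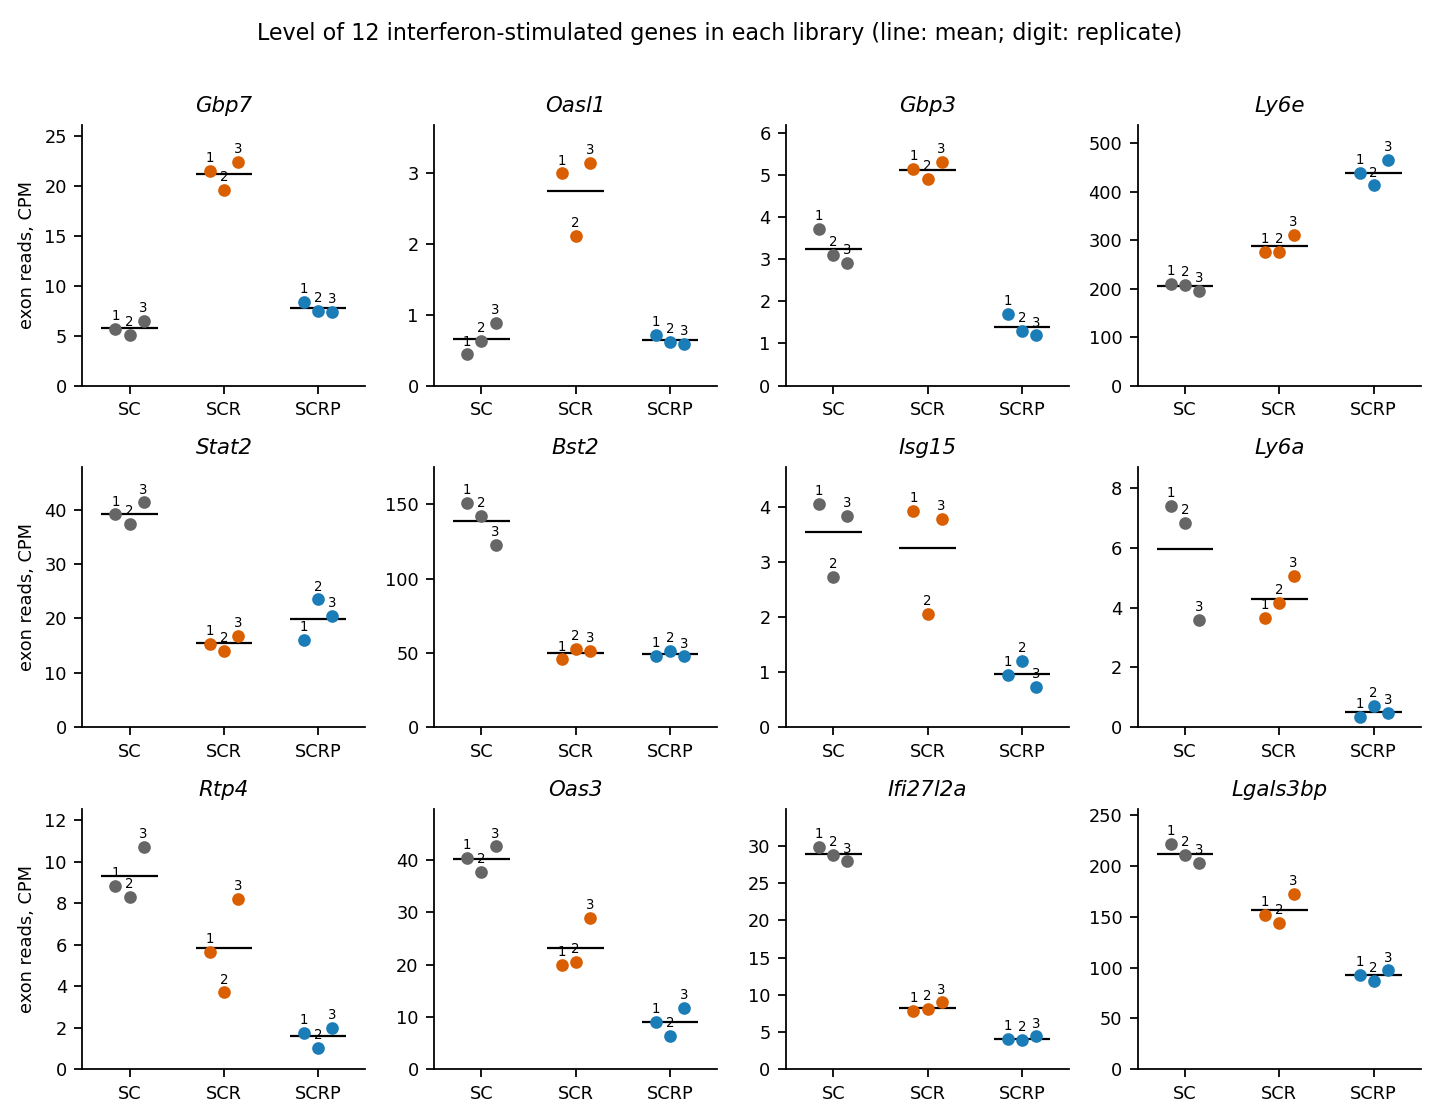
Exon reads in CPM on the y axis, from 0, for 12 of the 41 genes in each of the 9 libraries of the pterosin B experiment, with the group mean as a line and the replicate number above each point. Gbp7, Oasl1 and Gbp3 peak in SCR, Ly6e climbs from SC to SCRP, Bst2 is high only in SC among these groups, and Isg15 and Ly6a drop in SCRP.

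Among the other antiviral effectors, 4 of 6 fell and 1 rose under RANKL, and 3 fell with pterosin B. Over all genes tested 28.4% fell and 30.7% rose under RANKL, and 19.9% fell with pterosin B. Bst2 (ENSMUSG00000046718, chr8:71534255-71537456) encodes tetherin, which holds budding virus at the cell surface, and read 151, 142 and 123 CPM in SC, 45.7, 52.5 and 51.7 in SCR and 48.2, 51.2 and 47.7 in SCRP. It fell 2.77-fold under RANKL (adjusted p = 3.04e-11), and SCR and SCRP overlapped with a log2 fold change of -0.03 ± 0.07 between them. Trim30a, a mouse TRIM protein known to damp Toll-like receptor signalling, read 82.1, 92 and 98.2 CPM in SC, 43.7, 38.6 and 48.6 in SCR and 36.6, 38.4 and 46.7 in SCRP. It showed the same course, with 2.07-fold lower levels in SCR (adjusted p = 5.76e-08) and adjusted p = 0.418 for the second step. Samhd1, which destroys nucleotides that viruses need, read 211, 221 and 231 CPM in SC, 271, 245 and 267 in SCR and 227, 218 and 226 in SCRP. Its SCR libraries were above both other groups, with small changes of 0.24 ± 0.05 (adjusted p = 4.33e-04) and -0.22 ± 0.05 (adjusted p = 0.00169) on the log2 scale.

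Rtp4, whose protein is known to bind flavivirus replication complexes, read 8.83, 8.31 and 10.7 CPM in SC, 5.66, 3.7 and 8.2 in SCR and 1.76, 1.01 and 2 in SCRP. SCRP libraries were all below SCR, a fall of 3.67-fold (adjusted p = 4.98e-05). Its smaller fall under RANKL (1.58-fold, adjusted p = 0.033) was lost without SC replicate 1 or 3 or SCR replicate 1 or 2, with adjusted p from 0.0504 to 0.15. Rsad2 encodes viperin, an enzyme that makes a chain-terminating nucleotide, and read 7.78, 6.58 and 7.82 CPM in SC, 4.22, 3.17 and 4.68 in SCR and 1.91, 2.11 and 3.43 in SCRP. It fell 1.83-fold under RANKL (adjusted p = 0.00251), and its call with pterosin B (adjusted p = 0.0233) was lost without SCR replicate 1 or 3 or SCRP replicate 1 or 2. Cmpk2, the neighbour of Rsad2 and a mitochondrial nucleotide kinase, read 6.83, 4.85 and 4.94 CPM in SC, 3.15, 1.85 and 4.92 in SCR and 1.76, 1.19 and 2.69 in SCRP, and passed only between SCRP and SC (2.94-fold lower, adjusted p = 8.02e-04).

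Of the IFI genes and Xaf1, 3 of 5 fell at each step, where 28.4% of all genes tested fell under RANKL and 19.9% with pterosin B. Ifi27l2a, a small mitochondrial protein gene, read 29.9, 28.8 and 27.9 CPM in SC, 7.78, 8.11 and 8.97 in SCR and 4.01, 3.96 and 4.4 in SCRP. No groups overlapped, and its falls were 3.48-fold under RANKL (adjusted p = 5.03e-11) and 2.01-fold with pterosin B (adjusted p = 8.02e-07). Ifi209, of the PYHIN family of DNA-binding proteins, read 7.27, 7.87 and 8.17 CPM in SC, 3.15, 3.46 and 4.8 in SCR and 1, 1.5 and 2.41 in SCRP. Xaf1, which opposes an inhibitor of apoptosis, read 7.36, 7.05 and 9.06 CPM in SC, 5.11, 4.07 and 5.19 in SCR and 2.53, 2.8 and 3.68 in SCRP. Both stepped down without overlap, Ifi209 by 2.04-fold and 2.3-fold and Xaf1 by 1.63-fold and 1.6-fold. Ifi35 read 27, 22.4 and 29.3 CPM in SC, 21.3, 19.6 and 26.1 in SCR and 20.8, 22.4 and 21.6 in SCRP and passed only between SCRP and SC (adjusted p = 0.0383). Ifi44 had 24 reads in all of SCRP and at most 0.632 CPM in any library, too few to show a change of ordinary size.

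The ADP-ribosyltransferase genes Parp14 and Parp9, neighbours on chromosome 16, both fell under RANKL. Parp14 read 112, 119 and 126 CPM in SC, 64.4, 59.3 and 76.8 in SCR and 60.1, 57 and 69.7 in SCRP. Parp9 read 26.4, 30.7 and 34.6 CPM in SC, 23.7, 23 and 26 in SCR and 17.8, 17.2 and 19.3 in SCRP. Parp14 dropped 1.78-fold (adjusted p = 3.46e-07) and did not pass the second step (adjusted p = 0.389), whereas Parp9 dropped 1.26-fold (adjusted p = 0.00622) and then 1.34-fold (adjusted p = 0.00248). Parp9 overlaps Dtx3l, and 84.0% of its exon reads were unique.

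Ly6a had the largest fall of the 41 with pterosin B, and its neighbour Ly6e the largest rise. Ly6a (ENSMUSG00000075602), the stem cell antigen Sca-1, read 7.4, 6.82 and 3.6 CPM in SC, 3.66, 4.15 and 5.06 in SCR and 0.334, 0.704 and 0.467 in SCRP. SC and SCR overlapped, and SCRP fell to 8.48-fold below SCR (adjusted p = 1.37e-06), with 70 reads over its 3 libraries. Ly6e (ENSMUSG00000022587), a membrane-anchored relative that hinders coronavirus entry, read 210.3, 208 and 196 CPM in SC, 276, 275 and 310.0 in SCR and 439, 413 and 466 in SCRP. The groups rose in that order without overlap, by 1.4-fold (adjusted p = 9.54e-07) and 1.53-fold (adjusted p = 2.42e-07). Lgals3bp, a secreted glycoprotein that binds galectin-3, read 222, 211 and 203 CPM in SC, 152, 144 and 173 in SCR and 93.1, 86.6 and 97.3 in SCRP, and stepped down by 1.36-fold (adjusted p = 1.50e-05) and 1.69-fold (adjusted p = 1.16e-07).

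Levels between genes were compared on the authors' RPKM, which corrects for exon length. In SC the highest of the 41 was Bst2, with 133 ± 13.2 RPKM (SD, n = 3), followed by Lgals3bp with 64.5 ± 2.63 RPKM and Ifi27l2a with 54.1 ± 1.68 RPKM. In SCRP the highest was Ly6e, with 108 ± 6.8 RPKM, ahead of Bst2 with 50.7 ± 1.86 RPKM and Lgals3bp with 30.3 ± 1.85 RPKM. In SCR, Bst2 with 51.3 ± 3.84 RPKM and Lgals3bp with 50.9 ± 4.92 RPKM did not differ beyond their spread, both under Ly6e with 70.4 ± 5.01 RPKM. The lowest in all 3 groups was Ifi44, at 0.0387 RPKM in SC.

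Genes that act before or around the set were counted from separate lists. No interferon gene passed the filter on low counts: of 21 in the table, 19 had no read in any of the 9 libraries, and the other 2, Ifnab and Ifnz, had 2 and 6 reads. For Ifnb1, 0 of 400748085 exon reads allows a level of up to 0.00749 CPM, from a limit of 3 counts that covers counting error only, and the limit is higher if both reads of a pair were counted. These cultures were read at 1 time each, so an earlier pulse was not measured.

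Most receptors and Janus kinases tested fell under RANKL and most rose with pterosin B, though not all the same genes, while most of the 41 fell at the second step. Those that did both were Ifnar1, Ifnar2, Ifngr1 and Il10rb. Of 8 tested, 6 fell and 0 rose from SC to SCR, against 28.4% and 30.7% of all genes, and 5 rose and 0 fell from SCR to SCRP, against 17.9% and 19.9%. Ifnar1 read 227, 239 and 239 CPM in SC, 195, 185 and 193 in SCR and 249.8, 259.8 and 262 in SCRP. Ifnar2 read 105, 106 and 107 CPM in SC, 64.8, 62.3 and 65.9 in SCR and 87.6, 92.3 and 91.6 in SCRP. In both genes all SCR libraries were the lowest, and the log2 fold changes with pterosin B were 0.43 ± 0.04 (adjusted p = 6.93e-07) and 0.49 ± 0.05 (adjusted p = 3.88e-07). Ifngr1, a chain of the interferon-gamma receptor, read 122, 118 and 123 CPM in SC, 101, 104 and 108 in SCR and 171, 171 and 176 in SCRP and rose 1.66-fold with pterosin B (adjusted p = 1.98e-09). Il10rb, a subunit shared by the interferon-lambda receptor, read 236, 239 and 236 CPM in SC, 128, 138 and 143 in SCR and 150.0, 173 and 177 in SCRP. Jak1 read 269, 271 and 283 CPM in SC, 218, 225 and 222 in SCR and 228, 239 and 245 in SCRP. Tyk2 read 77.4, 70.6 and 65.2 CPM in SC, 63.6, 57.4 and 58.1 in SCR and 61.8, 70.5 and 62 in SCRP. The last pair were lower in SCR than in SC (adjusted p = 8.99e-06 and 0.00575) and did not pass between SCR and SCRP (adjusted p = 0.0807 and 0.217).

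Among the other IRF factors, those with the largest changes fell under RANKL and rose with pterosin B. Irf8 read 157, 161 and 153 CPM in SC, 25.9, 29.4 and 26.2 in SCR and 54.8, 61.9 and 55.1 in SCRP. It fell 5.8-fold under RANKL (adjusted p = 1.02e-14) and rose 2.11-fold with pterosin B (adjusted p = 1.54e-09), without overlap between any groups. Irf5 read 235, 236 and 217 CPM in SC, 138, 141 and 144 in SCR and 189, 203 and 206 in SCRP and Irf2 read 59.6, 66 and 68.8 CPM in SC, 39.9, 41.1 and 40.2 in SCR and 47.6, 50.8 and 53.7 in SCRP. Both followed the course of Irf8 at smaller size, with rises of 1.41-fold and 1.26-fold from SCR to SCRP.

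Sensing genes upstream of interferon fell in 8 of 12 and rose in 2 under RANKL, and rose in 4 and fell in 3 with pterosin B. Over all genes 28.4% fell and 30.7% rose at the first step and 17.9% rose and 19.9% fell at the second, so the second count is near that of all genes. Ikbke, a kinase that activates IRF3, read 91.1, 91 and 95 CPM in SC, 29.8, 35.2 and 32.1 in SCR and 67.1, 68.4 and 69.7 in SCRP. Tlr7, an endosomal RNA receptor, read 129.7, 147 and 159.6 CPM in SC, 36.1, 41.9 and 38.9 in SCR and 22.6, 23.3 and 25.2 in SCRP. Both dropped under RANKL, by 2.86-fold and 3.74-fold, then parted with pterosin B, where Ikbke rose 2.12-fold (adjusted p = 7.92e-10) and Tlr7 fell 1.64-fold (adjusted p = 2.18e-06). Tmem173, the gene of the adaptor STING, read 36.7, 39.6 and 43.3 CPM in SC, 14.3, 13.7 and 14.5 in SCR and 14.2, 13.7 and 16.8 in SCRP. Tlr3 read 15.3, 14.5 and 15.6 CPM in SC, 5.68, 8.05 and 7.25 in SCR and 7.58, 5.46 and 7.65 in SCRP. Each was lower in both RANKL groups than in SC, with log2 fold changes against SC of -1.42 ± 0.09 and -1.13 ± 0.14 in SCRP. Tlr9 read 6.77, 7.08 and 6.84 CPM in SC, 7.09, 5.76 and 6.48 in SCR and 10.4, 11.4 and 10 in SCRP and rose 1.65-fold with pterosin B (adjusted p = 1.73e-04).

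Among 10 inhibitors of interferon signalling, 5 rose and 1 fell at each step. Over all genes 30.7% rose and 28.4% fell under RANKL, and 17.9% rose and 19.9% fell with pterosin B. Socs3, which blocks Janus kinases, read 3.9, 4.04 and 4.32 CPM in SC, 8.57, 9.69 and 7.27 in SCR and 17.8, 18.4 and 15.6 in SCRP. It rose at each step, 2.08-fold (adjusted p = 2.03e-06) and 2.03-fold (adjusted p = 4.02e-06), with no overlap. Socs1 read 1.27, 1.26 and 1.95 CPM in SC, 3.23, 2.24 and 2.55 in SCR and 3, 1.63 and 2.69 in SCRP and rose under RANKL (1.79-fold, adjusted p = 0.0257). Ptpn6, the phosphatase SHP-1, read 304, 308 and 313 CPM in SC, 419, 373 and 393 in SCR and 358, 343 and 351 in SCRP. Irf2bp2, a co-repressor, read 194, 192 and 189 CPM in SC, 217, 219.7 and 221 in SCR and 318, 314 and 307 in SCRP. The first peaked in SCR and the second in SCRP. Trim24 read 23.2, 24.3 and 22.8 CPM in SC, 19.9, 17.7 and 19.9 in SCR and 26.8, 23.1 and 22.4 in SCRP, and Nlrx1 read 18.7, 17.7 and 16.9 CPM in SC, 15, 16.3 and 15.4 in SCR and 15, 11.6 and 14.1 in SCRP, lower in SCRP than in SC (adjusted p = 0.00326).

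Of 68 other interferon-induced genes that could be tested, 35 fell and 12 rose under RANKL, and 21 fell and 7 rose with pterosin B, with medians of -0.46 and -0.21. Over all genes 28.4% fell and 30.7% rose under RANKL, and 19.9% fell and 17.9% rose with pterosin B. Ifi204 read 43.4, 39.2 and 39.6 CPM in SC, 9.68, 9.69 and 14.3 in SCR and 6.63, 5.06 and 8.31 in SCRP. Ifi211 read 16.3, 13.4 and 16.2 CPM in SC, 4.59, 3.88 and 6.14 in SCR and 2.38, 2.88 and 2.65 in SCRP. Both PYHIN genes were lower at each step. Ifi207, of the same family, read 153, 169.7 and 172 CPM in SC, 165, 143 and 165 in SCR and 75.4, 69.5 and 92.1 in SCRP, overlapping between SC and SCR and 1.99-fold lower in SCRP (adjusted p = 1.47e-07). Sp110 read 43.8, 47.9 and 40.3 CPM in SC, 11.6, 10.7 and 14.1 in SCR and 16.8, 16.4 and 18.3 in SCRP, falling 3.6-fold and then rising 1.41-fold. Oas1g read 4.18, 4.46 and 3.06 CPM in SC, 5.29, 1.85 and 4.15 in SCR and 2.29, 0.99 and 1.09 in SCRP and fell 2.61-fold with pterosin B (adjusted p = 0.0073). Gbp8 went the other way, at 0.0876, 0.131 and 0.148 CPM in SC, 1.13, 1.53 and 0.632 in SCR and 2.93, 2.44 and 2.37 in SCRP. It rose at both steps (adjusted p = 2.45e-05 and 0.0158), and it overlaps Gbp4 and Gbp9, which share reads with it.

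Intron reads of the same libraries give a second view, since they come mostly from RNA that is not yet spliced. Of the 41 genes, 33 had enough intron reads to test, and those that did not were Isg15, Ifit1, Ifit3, Irf7, Zbp1, Gbp2, Ly6a and Ifi44. From SC to SCR 12 fell and 3 rose on intron reads, where 15.3% and 16.3% of all 12665 genes tested did. Those counts moved with single libraries, to 6 lower and 1 higher without SC replicate 1, 5 lower without SC replicate 3, 7 lower without SCR replicate 2 and 1 higher without SCR replicate 3. From SCR to SCRP 6 fell, Trim25, Oas1a, Oas2, Oasl1, Mx1 and Gbp7, and Ly6e rose, where 7.85% and 6.21% of all genes did, and 3 fell without SCR replicate 3 or SCRP replicate 2. The sign matched that of the exon reads in 28 of 33 and 26 of 33 genes, against 79.1% and 72.2% of 11580 genes tested on both.

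Oasl1 had 53 intron reads in SC, 164 in SCR and 16 in SCRP, a log2 fold change of -3.29 from SCR to SCRP on intron reads (adjusted p = 0.00138). Gbp7 had 33, 148 and 40, rising by 1.87 (adjusted p = 0.0207) and then falling by 1.84 (adjusted p = 0.0417) on the log2 scale. Ly6e had 140, 286 and 611, up by 0.81 (adjusted p = 0.0238) and 1.07 (adjusted p = 0.00387). The first step of Oasl1 did not pass on intron reads (log2 fold change 1.32, adjusted p = 0.106), and the called steps of these 3 genes had the sign of their exon reads. Lgals3bp differed, and its intron reads went from 267 to 618 between SC and SCR, up by 0.99 on the log2 scale (adjusted p = 0.00171), while its exon reads fell by 0.44. It was the only called gene of 15 whose intron and exon reads differed in sign in that comparison. Intron reads can also come from overlapping transcripts, which was not tested.

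**Figure D3:**
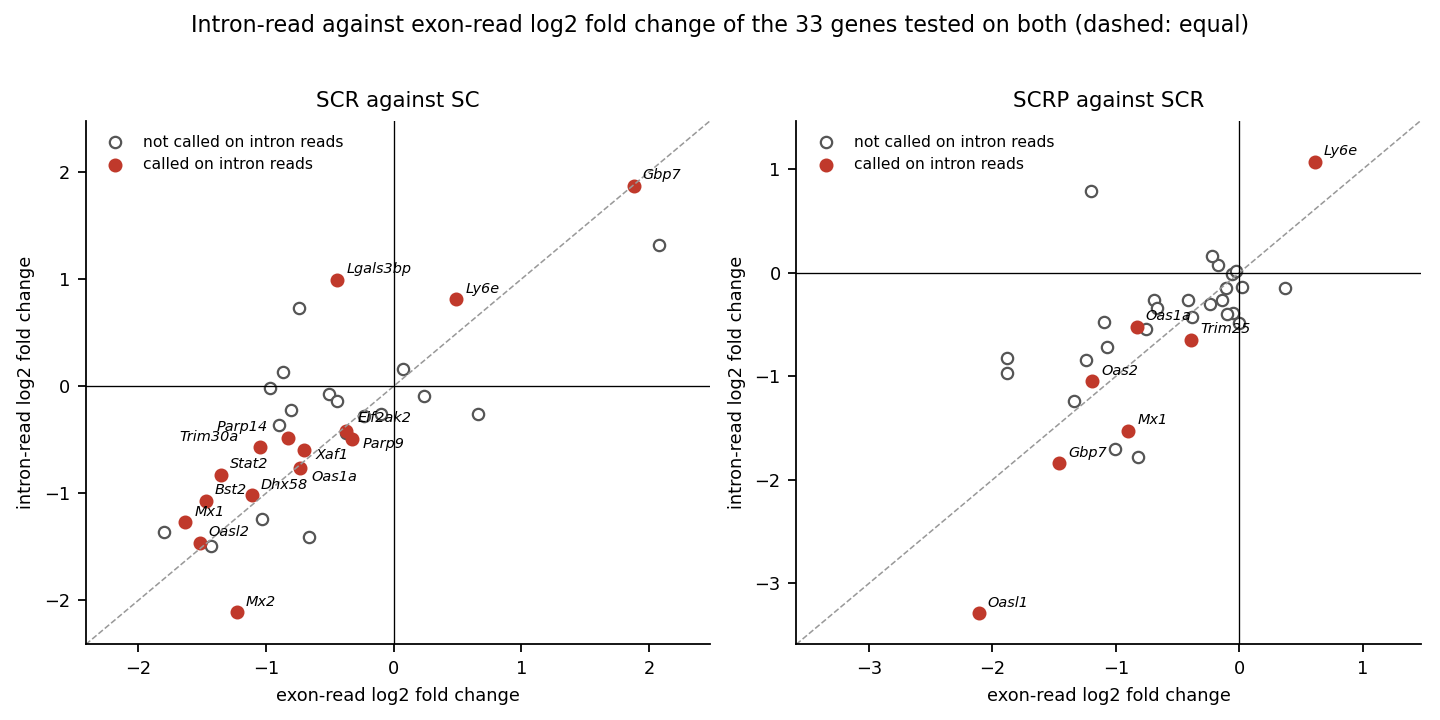
Intron-read log2 fold change on the y axis against exon-read log2 fold change on the x axis for the 33 genes tested on both, for SCR against SC and SCRP against SCR; filled, named points are called on intron reads. Lgals3bp is the only named point at the upper left of the first panel, at -0.44 on exon and 0.99 on intron reads.

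In the knockout experiment the 17 listed genes were all higher in KO than in WT. The table holds only genes that its authors found changed at least 2-fold, 1053 higher and 1222 lower in KO (46.3% higher), so the call itself is a feature of the selection, and 99.5% of the 1773 listed genes tested were called here. All 17 were called higher and 0 lower, where 48.3% and 51.3% of listed genes tested were, with no overlap between KO and WT, where 47.3% were higher without overlap. Folds ran from 2.01-fold for Cmpk2 to 3.71-fold for Mx2, with a median log2 fold change of 1.40. In the authors' deposited table the folds of these 17 ran from 2.04 to 3.81.

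Stat2 read 20.4, 20.1 and 19.2 CPM in WT and 47.9, 47.2 and 58.8 in KO. Irf7 read 11.9, 11.9 and 7.4 CPM in WT and 18.8, 15.3 and 29.5 in KO. The 2 factors were 2.58-fold and 2.06-fold higher in KO, with log2 fold changes of 1.37 ± 0.08 and 1.04 ± 0.18. Isg15 read 3.13, 3.28 and 2.01 CPM in WT and 5.08, 4.92 and 7.52 in KO. Usp18 read 2.86, 1.73 and 1.46 CPM in WT and 5.5, 5.11 and 7.33 in KO. Both were low in every library and without overlap, at 2.1-fold and 2.99-fold higher in KO. Dhx58 read 9.35, 10.1 and 7.71 CPM in WT and 18.4, 19.2 and 24.9 in KO. Zbp1 read 1.16, 1.95 and 0.551 CPM in WT and 3.24, 3.65 and 5.48 in KO. These sensor genes were 2.32-fold and 3.43-fold higher.

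Ifit3 read 1.57, 1.15 and 0.669 CPM in WT and 1.97, 1.66 and 3.24 in KO. Its lowest KO library was only 1.06 times its highest WT library, and its log2 fold change was 1.04 ± 0.32 (adjusted p = 0.0046). Oasl2 read 8.14, 7.31 and 6.89 CPM in WT and 16.8, 15.5 and 31.1 in KO. Mx1 read 0.716, 0.797 and 0.472 CPM in WT and 1.69, 1.39 and 1.97 in KO. Mx2 read 0.268, 0.487 and 0.118 CPM in WT and 1.03, 1.15 and 1.04 in KO. The Mx genes rest on few reads, down to 3 for Mx2 in WT replicate 3. Their log2 fold changes were 1.35 ± 0.34 and 1.89 ± 0.45, and that of Oasl2 was 1.52 ± 0.19. C57BL/6 mice carry a defective form of Mx1, so its RNA need not give working protein.

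Bst2 read 56.5, 58.3 and 50.4 CPM in WT and 141, 125 and 169.8 in KO. Trim30a read 32.3, 33.4 and 33.5 CPM in WT and 66.3, 66.9 and 77.5 in KO. Rtp4 read 8.72, 7.08 and 5.35 CPM in WT and 15.6, 13.3 and 29.1 in KO. These effectors were 2.64-fold, 2.12-fold and 2.77-fold higher in KO, and Trim30a had the tightest groups of the 3. Cmpk2 read 2.91, 3.94 and 2.36 CPM in WT and 4.84, 5.63 and 7.87 in KO. Ifi209 read 3.67, 4.07 and 3.42 CPM in WT and 10.8, 11.3 and 16 in KO. Ifi27l2a read 8.95, 10.1 and 7.95 CPM in WT and 21.7, 23.4 and 38.4 in KO. Ly6a read 8.41, 7.97 and 5.86 CPM in WT and 17.7, 16.8 and 28.1 in KO. Ifi209 stood out for separation, its lowest KO library being 2.66 times its highest WT library, the widest such gap of the 17.

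**Figure D4:**
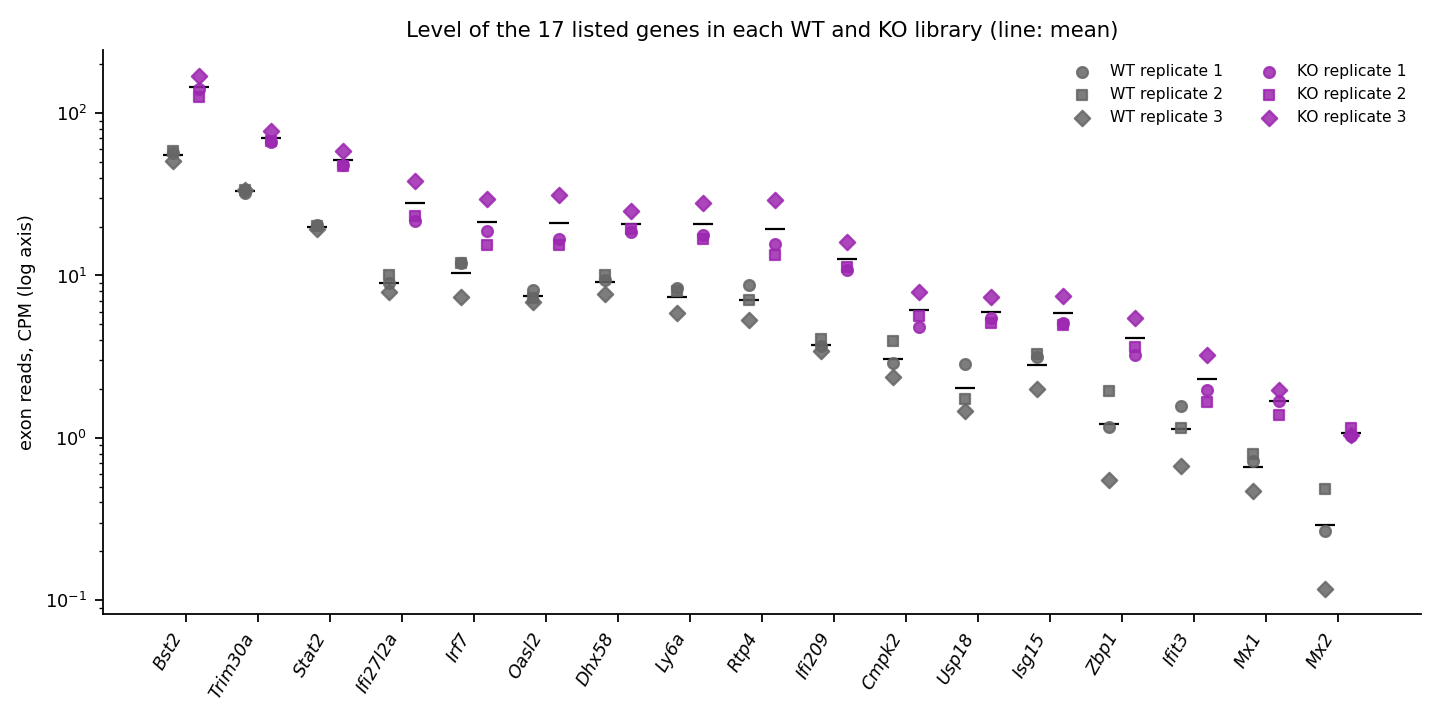
Exon reads in CPM on a log y axis for the 17 genes listed in the knockout table, in each WT (grey) and KO (purple) library, with group means as lines and a marker shape per replicate. KO points lie above WT points for each gene, and the KO replicate 3 diamonds are the highest in 16 of the 17.

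Most other listed genes of the pathway were higher in KO too. Of 23 other interferon-induced genes listed and tested, 22 were higher in KO and 0 lower, and so were 4 of 4 sensing genes and Irf8. Among all listed genes tested, 48.3% were higher and 51.3% lower, and being called at all is a feature of the selection. The full lists of other interferon-induced and sensing genes hold 76 and 13, most of them not in the knockout table. Ifi206 overlapped between groups and did not pass (adjusted p = 0.057). Ifnlr1, a chain of the interferon-lambda receptor, was too low to test and is listed as lower in KO, with 4, 5 and 8 reads in WT and 0, 2 and 0 in KO. Irf8 read 31.3, 31.7 and 30.2 CPM in WT and 109, 105 and 104 in KO. Ikbke read 30.9, 31.4 and 30.5 CPM in WT and 86.2, 86 and 85.6 in KO. Tlr7 read 22.5, 21.6 and 23 CPM in WT and 77, 81.1 and 78.6 in KO. Monocyte genes moved beside them, and 6 of 6 listed monocyte and macrophage markers were higher in KO. Their summed level was between 6951 and 7433 CPM in WT and 19104 and 20264 in KO, and was mostly that of Lyz2. The 2 of 2 listed neutrophil markers were higher too, at a sum between 56.1 and 60.7 CPM in WT and 128 and 144 in KO. The 2 listed lymphoid markers, Cd79a and Nkg7, are listed as higher in KO and were too low to test. Their sum was between 0 and 0.133 CPM in WT and 0.376 and 0.872 in KO. The part of these shifts in the level of the 17 genes was not tested.

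The KO and pterosin B comparisons share no library. Of the 17 genes higher in KO, 7 fell, 9 did not pass and 1, Stat2, rose from SCR to SCRP, 41.2% falling and 5.88% rising, with a median log2 fold change of -0.90. Of all 922 genes listed as higher in KO and tested there, 9.11% fell and 40.8% rose, with a median of 0.33. From SC to SCR the 17 went with the other genes higher in KO, 12 falling and 0 rising (70.6%), against 77.7% falling of the 922. The fall of Isg15, Usp18, Oasl2, Rtp4, Ifi209, Ifi27l2a and Ly6a with pterosin B is thus set against a higher level of each in KO. RANKL was given for 3 days in the first experiment and 2 in the second, so the values stand side by side and their difference was not tested.

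Replicates of a group were uneven for these genes in particular libraries. Within KO, replicate 3 was the highest library for 16 of the 17 genes (94.1%), against 35.5% of all listed genes tested and 38.3% of those higher in KO. Its level was a median of 1.49 times the mean of the other 2 KO libraries, and the exception was Mx2, highest in replicate 2. Within WT, replicate 3 was the lowest for 16 of the 17, against 38.1% of all listed genes tested, with Trim30a as the exception. The summed level of the 17 genes was between 155 and 184 CPM in WT and between 378 and 538 in KO.

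Leaving out KO replicate 3 kept all 17 genes higher in KO by edgeR's test, with folds from 1.62 for Ifit3 (adjusted p = 0.0481) to 3.77 for Mx2. The authors had selected these genes with KO replicate 3 included, so passing again was largely set by that selection. The p-values were adjusted over listed genes only, and 99.5% of those were called with all libraries in. Rtp4 went from 2.77-fold to 2.05-fold and Oasl2 from 2.86-fold to 2.17-fold without KO replicate 3. Irf7, at 1.64-fold, Ifit3, Cmpk2 at 1.72-fold and Isg15 at 1.79-fold came under 2-fold. The KO replicate 3 library did not stand apart in the summed osteoclast markers, where the 3 KO libraries lay between 3356 and 3563 CPM, or in the level of Sik3, at 19.4 CPM between 17.6 and 23.9.

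The same unevenness was present in the pterosin B experiment. In SCR, replicate 3 was the highest library for 37 of the 41 genes (90.2%), against 31.6% of all genes tested, and replicate 2 the lowest for 33 of 41 (80.5%), against 33.8%. SCR replicate 3 was a median of 1.27 times the mean of the other 2. Replicate 3 was also the highest for 27 of 41 genes in SC and 26 of 41 in SCRP, and replicate 2 the lowest for 22 and 21. The median coefficient of variation between replicates of the 41 genes was 9.51% in SC, 18.1% in SCR and 18.9% in SCRP, against 7.42%, 6.64% and 7.32% over all genes tested. For the 17 listed genes it was 23.9% in WT and 25% in KO, against 9.60% and 10.5%. Low counts raise this measure, and their part in it was not tested.

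**Figure D5:**
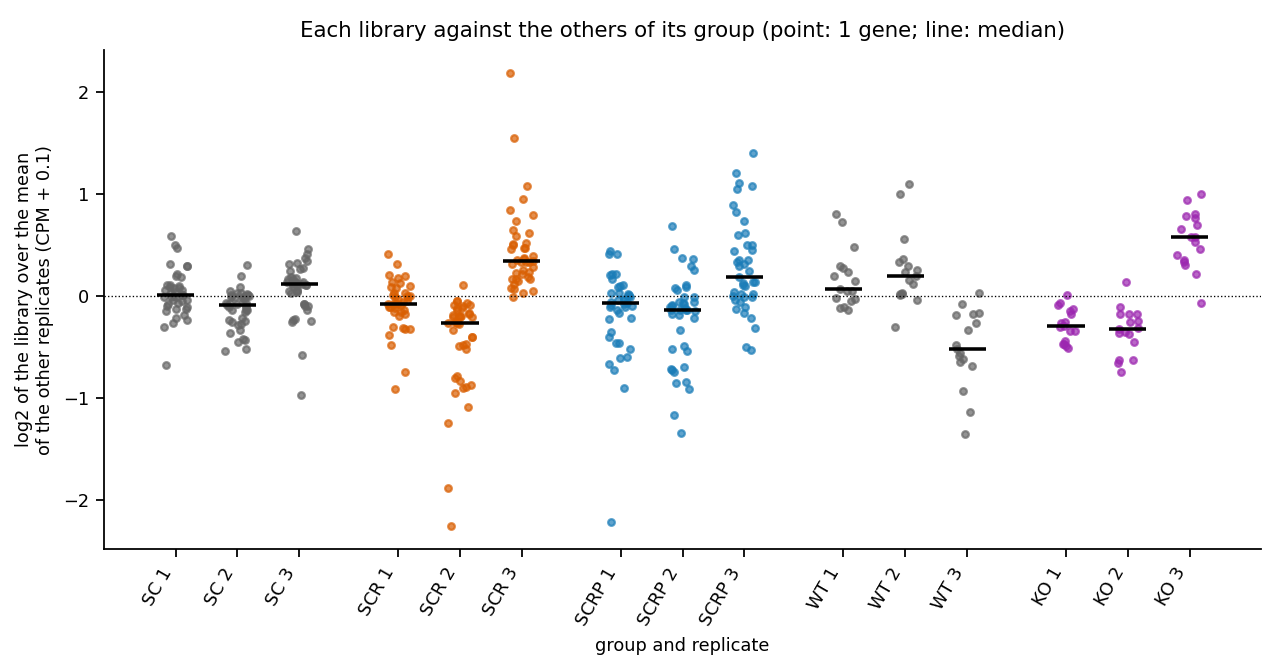
For each library on the x axis, the log2 ratio of its level to the mean of the other replicates of its group (CPM with 0.1 added) on the y axis, 1 point a gene (41 genes in SC, SCR and SCRP, 17 in WT and KO), with the median as a line. The medians of SCR replicate 3 (0.35) and KO replicate 3 (0.58) lie above zero, and those of SCR replicate 2 (-0.26) and WT replicate 3 (-0.52) below it.

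The authors' deposited table gave nearly the same counts for the 41 genes. At the authors' false discovery rate under 0.05 in the authors' deposited table, 22 fell and 5 rose from SC to SCR, 22 fell and 2 rose from SCR to SCRP, and 35 fell and 2 rose from SC to SCRP. The shares of all genes at the authors' rate are not given here, so these counts only stand beside those of the edgeR test.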

How the data were processed

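Ribosomal RNA was removed and strand-marking libraries were built, per the labels' protocols. The labels describe marrow monocytes, and a design note in the deposit that names embryonic livers was not followed. The authors deposited read counts per gene over exons and introns, RPKM values, and their own p-values and signed folds. The genome was GRCm38 (mm10) per the submitters' processing notes, and no source used here gives the aligner or the counting settings. The authors' deposited score column, a signed fold, was used only where named. Of counts from 1 to 39, 75.3% to 79% were even in the pterosin B experiment and 45.5% to 50.7% in the knockout experiment. Both reads of a pair may have been counted in the first, whose counts are then not independent. A further 174 columns of the tables were not used.

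Counts were tested with edgeR 4.0.16 in R 4.3.3 (filterByExpr, TMM scaling, quasi-likelihood test, Benjamini-Hochberg over all genes tested), on 13650 genes for exon reads and 12665 for intron reads, with the 9 libraries in 1 fit. The knockout table lists a selection of genes, so library totals were recovered from count, exon length and RPKM (98.7% to 98.9% of genes within 0.1%) and used with no scaling factors on 1773 genes. Steps were tested on simulated data: for SCRP against SCR, 93% of genes changed by 1 on the log2 scale were recovered among 13364 genes, and 69% of those changed by 0.5. For KO against WT these shares were 86.9% and 63%, and for intron reads from SCR to SCRP 59% and 6%. All genes were simulated with 1 common spread, and changed genes were not drawn from those with the fewest reads. The 41 genes varied more between replicates of SCR and SCRP than genes at large, so the shares may be too high for them. Tables were joined with pandas 2.3.3 and numpy 2.4.6, and figures drawn with matplotlib 3.10.9 in Python 3.11.15.

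The 41 genes and all lists were chosen with earlier results of these data known. Values in every library are given for up to 4 called genes per role group with the largest change and at least 1 CPM on average, for genes called against the prevailing direction and for those in the knockout table. Ddx58, Oas1a, Ifi35 and Ifi44 were added after their values were seen. Of other pathway genes, 6 were named at the outset, 1 of which is not reported here, and up to 3 per list and comparison were named by size. Alternatives were DESeq2 1.42.0, RLE scaling (TMM over the listed genes for the knockout), no filter, unique exon reads, only the compared groups in the fit, the replicate number as a block and leaving out each library. Over all genes tested, same-numbered replicates did not deviate together (correlations from -0.0477 to 0.0954), so the numbers were not taken as pairs, although replicate 3 was most often the highest for the 41 genes in each pterosin B group. Intervals and limits on counts of 0 cover counting error only.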

Additional observations from a re-analysis of the deposited data

How the results depend on the processing

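Leaving out each library in turn gave from 5 to 5 of the 41 genes higher and from 21 to 29 lower in SCR than in SC, from 1 to 2 higher and from 18 to 26 lower in SCRP than in SCR, from 2 to 2 higher and from 35 to 36 lower in SCRP than in SC, and from 17 to 17 of 17 higher in KO. The count of 1 higher in SCRP than in SCR came without SCR replicate 2 or SCRP replicate 2. The 17 genes of the knockout table were selected by its authors on these same libraries, so their constant count was largely set by that selection. On intron reads the ranges were from 1 to 4 higher and from 5 to 11 lower in SCR than in SC, and from 3 to 6 lower in SCRP than in SCR.

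With the replicate number as a block, which the labels do not give as a pairing, 5 rose and 29 fell from SC to SCR, 2 and 23 from SCR to SCRP, and 2 and 36 from SC to SCRP, with 17 higher in KO. Genes that passed from SC to SCR with the block and not without it include Gbp2 (log2 fold change -0.76), Ifit3 (-1.16) and Cmpk2 (-0.85), and Cmpk2 also passed from SCR to SCRP (-0.79). Other pathway genes under the block were 20 higher and 55 lower, 26 and 27, and 23 and 60. The shares of all genes under the block, or with a library left out, are not given here. DESeq2, RLE scaling, no filter, unique exon reads and fits of only the compared groups moved no count of called genes by over 1.5 times.

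Genes that missed the threshold changed sign in some fits with 1 library left out, and the cause was not tested. From SC to SCR, Isg15 ranged from -0.27 to 0.13 and Oas2 from -0.24 to 0.02 on the log2 scale, positive in both without SCR replicate 2. From SC to SCRP, Oasl1 ranged from -0.25 to 0.27, positive without SC replicate 3 or SCRP replicate 3, and Samhd1 from -0.01 to 0.05, negative without SC replicate 1. From SCR to SCRP, without SCR replicate 3, Parp14 (from -0.19 to 0.01) and Ifit2 (from -0.39 to 0.19) were positive. Ifih1 (from -0.10 to 0.18) and Irf9 (from -0.06 to 0.16) were negative without SCR replicate 1, SCR replicate 2 or SCRP replicate 3. Bst2 ranged from -0.09 to 0.01. Genes at a few CPM, such as Mx1, Mx2 and Ifit3, are the least certain at this depth.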
